A study of Mus musculus with 12 samples.

Results

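The cytosolic ribosomal protein genes of mouse liver are described here in wild-type mice and in mice without Tert, the catalytic subunit of telomerase, 24 h after ENU or saline was injected. Members were all genes with an Rpl or Rps symbol followed by a number, with a, x, y or l name forms allowed, together with Rplp0, Rplp1, Rplp2 and Rpsa. Symbols ending in -ps and the Rps6k kinases were left out. This gave 89 of the 49584 genes in the deposited table. The 4 groups held 3 libraries each: G1 Tert-/- mice after ENU, G1 Tert-/- mice after saline, wild-type mice after ENU and wild-type mice after saline. All were age-matched and of the same labelled strain, C57BL/6/129/SvJ. ENU, N-ethyl-N-nitrosourea, is an alkylating mutagen and was given intraperitoneally at 150 µg per g body weight. Age and sex are not given in the labels, nor is it stated that the libraries of a group came from different animals, so the p-values measure the spread between these libraries, which may be technical. G1 is the first generation of null mice, in which telomeres are in general still long.

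Each ribosome contains a small subunit, which reads the mRNA, and a large subunit, which joins amino acids. Their proteins are made from many short, abundant mRNAs, most of which begin with a run of pyrimidines that lets mTOR signalling control their translation. Several members have paralogues with their own regulation: Rps27l is a p53 target gene, and Rpl22l1 is repressed by Rpl22 protein in mouse cells. Free Rpl5 and Rpl11, bound to 5S rRNA, can block Mdm2 and thereby stabilise p53.

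The start regions of the members on which the results turn, Rps27l and Rpl22l1, and of their partners Rps27 and Rpl22, are shown because the members of each pair did not move together. Each line gives 100 bases before and 20 bases from the RefSeq start (GRCm38.p6), 5′ to 3′ on the gene's strand, with matches to CCGGAA or its reverse complement (the core bound by ETS factors), AAGATGGC or its reverse complement (a YY1-type motif) and TATAAA in capitals.
Rps27l: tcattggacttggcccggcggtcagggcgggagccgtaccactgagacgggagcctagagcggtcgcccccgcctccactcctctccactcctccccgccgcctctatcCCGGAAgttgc
Rps27: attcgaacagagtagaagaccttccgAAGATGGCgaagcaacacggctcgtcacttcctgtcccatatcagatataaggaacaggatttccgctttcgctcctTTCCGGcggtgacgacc
Rpl22l1: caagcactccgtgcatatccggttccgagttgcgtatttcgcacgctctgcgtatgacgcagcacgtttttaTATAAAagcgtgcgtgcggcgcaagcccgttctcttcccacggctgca
Rpl22: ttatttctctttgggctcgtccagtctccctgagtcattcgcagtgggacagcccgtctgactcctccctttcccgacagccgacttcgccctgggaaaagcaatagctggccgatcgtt
These lie at chr9:66945986-66946105 (plus strand), chr3:90213629-90213748 (minus strand), chr3:28805408-28805527 (plus strand) and chr4:152325626-152325745 (plus strand). A TATAAA stood 28 bases before the RefSeq start of Rpl22l1, and none of the other starts shown had one. That start lay 72 bases inside the gene's span in the deposited table, so the TATAAA lay within that span too. CCGGAA was found on either strand in the 300-base promoter windows of 32 of the 64 members with a RefSeq window, 50%, against 18.3% of 19041 promoters in all and 29.3% of the 8887 promoters of tested genes. AAGATGGC was found in 5 of the 64, 7.81%, against 3.14% of all promoters and 4.89% of those of tested genes. TATAAA on the gene strand was found in 6 of the 64, 9.38%, against 8.52% of all promoters and 4.62% of those of tested genes. At least 6 pyrimidines in a row occurred in the 16 bases around the start in 25 of the 64, 39.1%, against 13.2% of all promoters. These matches are descriptions of letters, not of bound sites.

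All 77 genes that encode the standard large (46) and small (31) subunit proteins under an Rpl or Rps symbol were in the table, and the other 12 members were paralogues or copies. Levels were read as FPKM, which scales reads by transcript length and library depth. Comparison between genes is only rough, since the length behind the values could differ from that of the principal transcript. For Rps13 these were 1173 and 589 bases. Of the 77, 67 averaged at least 100 FPKM over the 12 libraries. The 5 highest were Rps2 (830 FPKM on average), Rplp1 (821), Rps14 (643), Rpl41 (599) and Rpl10 (587). Rps2, Rps14 and Rpl10 are core subunit proteins, Rplp1 is an acidic protein of the stalk that recruits elongation factors, and Rpl41 is a very short peptide. The median was 229 FPKM for the large subunit genes and 262 FPKM for the small subunit genes.

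Several members at the bottom of the range share sequence with other genes. Rpl24 averaged 0.921 FPKM, and 80.1% of the 100-base stretches of its principal transcript also occurred in transcripts of 5 other genes. Rpl13a averaged 16.2 FPKM with 55.2% shared, and Rpl21 averaged 39.4 FPKM with 16.7% shared among 40 other genes. Such reads may be split or dropped in counting, so these values are uncertain, and so is Rpl17, which spread from 35.5 to 129 FPKM between libraries and shared sequence with 16 genes. Across the 77 genes, the level was hardly related to the shared portion (Spearman rho -0.10; the genes are not independent). The 276 genes with -ps symbols summed to between 911 and 2480 FPKM per library, the highest in Tert-/- saline replicate 2. Of the other name forms, Rps27l averaged 404 FPKM and Rpl36al 239 FPKM, in the range of standard members. Rpl7l1 (30.0 FPKM), Rpl22l1 (19.2), Rps4l (17.9), Rpl6l (15.1), Rps3a2 (3.23) and Rps3a3 (2.27) were lower. Rpl10l, an autosomal copy of Rpl10 expressed in testis, and Rps12l1 had no reads in any library, which allows up to 3 reads in each. All of the Rps12l1 transcript is shared with other genes. Rpl3l, the muscle form of Rpl3, had at most 0.195 FPKM, and Rpl39l had 0.217 FPKM in wild-type ENU replicate 2 and no reads elsewhere. These 4 did not pass the filter of at least 1 FPKM in at least 3 libraries, which left 85 members among 12434 tested genes.

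The libraries held 30053822 to 43680374 reads, of which the tested members had at least 9 each in every library. Tert was at 1.11 to 1.63 FPKM in Tert-/- livers after ENU, 0.304 to 0.734 in Tert-/- livers after saline, 4.71 to 6.23 in wild-type livers after ENU and 1.61 to 3.22 in wild-type livers after saline, so within each treatment every Tert-/- library was below every wild-type library; which part of the gene is deleted is not given in the labels. Hepatocyte markers (10 of 10 found) summed to 42860 FPKM or more in each library, and the 3 proliferation markers were below 1 FPKM throughout. Tert-/- saline replicate 2 stood apart: 17486 genes had reads, against 19576 or more in the other libraries, its 20 most abundant genes took 35.3% of summed FPKM, against 22.5 to 27.9%, and its median ratio to the gene-wise geometric mean of the libraries was 0.654, against 0.994 or more. Results that rest on it are therefore given with and without it. In tissue, fewer cells of a type and less RNA per cell cannot be told apart.

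Together the 89 members took 2.67, 3.12 and 3.08% of summed FPKM in Tert-/- livers after ENU. They took 3.05, 4.50 and 2.48% in Tert-/- livers after saline, 2.83, 2.77 and 2.89% in wild-type livers after ENU, and 2.44, 2.66 and 2.31% in wild-type livers after saline. Every wild-type ENU library was thus above every wild-type saline library, while the Tert-/- saline libraries overlapped each of the other groups. The group means were 2.95 ± 0.25%, 3.34 ± 1.04%, 2.83 ± 0.0595% and 2.47 ± 0.18% in that order (SD, n = 3 each). Without replicate 2 the Tert-/- saline mean was 2.77 ± 0.40% (SD, n = 2).

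**Figure D1:**
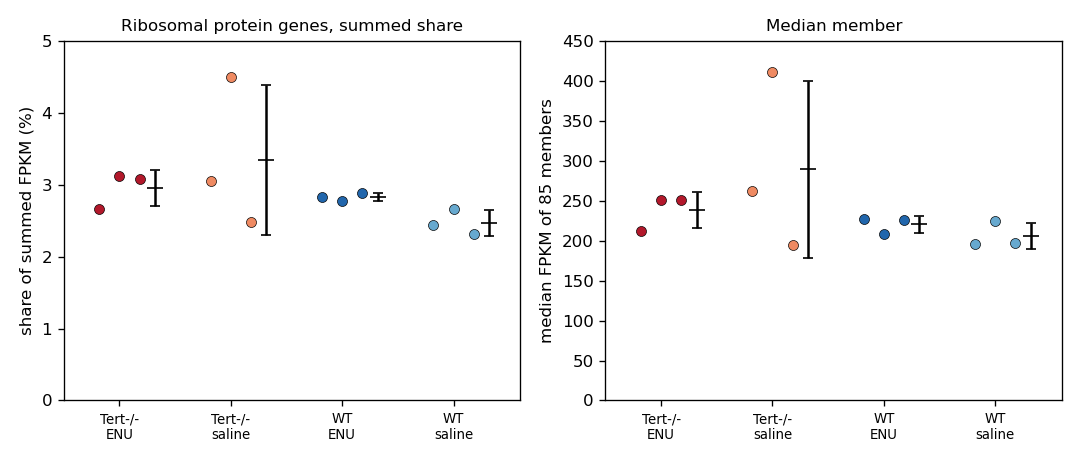
Left, the summed FPKM of all 89 ribosomal protein genes as a share of the library's summed FPKM (%); right, the median FPKM of the 85 tested members. Points are libraries, with the group mean and SD beside them (n = 3); Tert-/- saline replicate 2 (4.50%) is above every other library, and the wild-type ENU libraries are above the wild-type saline libraries in the left plot.

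In Tert-/- saline replicate 2 the members were high together. Of the 85, 78 had their highest value there, against 13.5% of all tested genes, and only Rpl7l1 had its lowest there, where 54.6% of all tested genes had theirs. The ratio of replicate 2 to the mean of replicates 1 and 3 had a median of 1.86 over the members and 0.649 over all tested genes. It ranged from 0.737 for Rps27a, a ubiquitin fusion gene, and 0.866 for Rpl7l1 to 3.19 for Rps15. Rps15, a small subunit protein near the decoding site, had 383, 1101 and 306 FPKM in the 3 Tert-/- saline libraries. Rps27a had 240, 144 and 151 FPKM there, so replicate 2 did not stand above the others for it.

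Members with GC-rich transcripts had the highest ratios. The ratio had a median of 2.14 in the 43 members with 51.5 to 60.8% GC and 1.68 in the 42 with 40.6 to 50.9% GC (Spearman rho 0.44 across the 85 members). The relation was similar over the 12418 tested genes with a transcript sequence (rho 0.45). Over all tested genes the ratio also fell with transcript length (rho -0.53): its median was 1.19 in 1670 genes under 1000 bases, 0.863 in 5324 genes of 1000 to 3000 bases and 0.443 in 5424 longer genes. Of the 85 members, 55 had principal transcripts under 1000 bases, and within the members length and ratio were hardly related (rho -0.07). These correlations are across genes that share the same libraries and are descriptions.

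**Figure D2:**
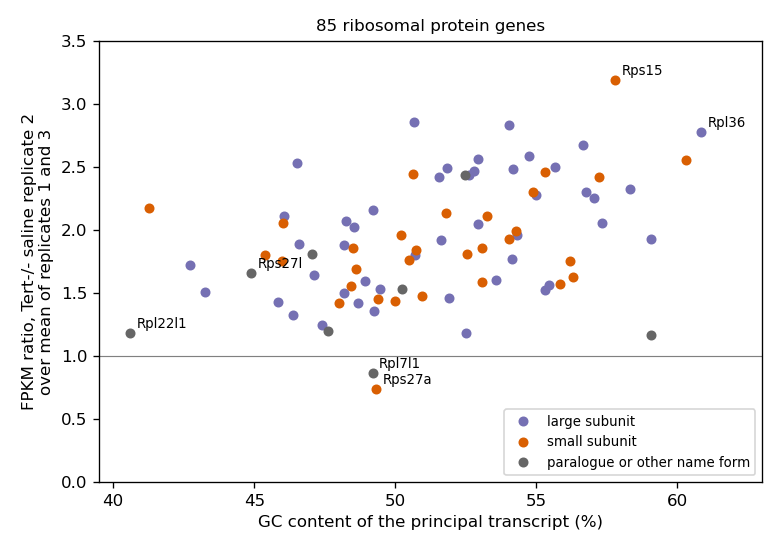
Each point is a tested ribosomal protein gene; the x axis is the GC content of its principal transcript (%) and the y axis the ratio of its FPKM in Tert-/- saline replicate 2 to the mean of Tert-/- saline replicates 1 and 3. Only Rps27a (0.737) and Rpl7l1 (0.866) lie under a ratio of 1, and Rps15 (3.19) is the highest.

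Lists of other short-mRNA machinery behaved alike in that library, with a median ratio of 1.56 for 76 nuclear respiratory chain genes (median transcript 863 bases), 1.35 for 77 mitochondrial ribosomal protein genes (1316 bases) and 1.26 for 37 proteasome genes (1540 bases). Lists of longer genes had lower ratios, 0.588 for 57 ribosome biogenesis factors (2911 bases) and 0.450 for 22 kinase and mTOR genes of translation control (4899 bases). Replicate 2 also held the most globin RNA, 746 FPKM summed over 4 globin genes, against 112 and 218 in the other Tert-/- saline libraries. The 7 erythroid markers summed to 105 to 124 FPKM in Tert-/- livers after ENU, 187 to 838 after saline, and 127 to 143 in wild-type livers after ENU and 213 to 411 after saline. Slc4a1, the anion exchanger that defines red cell membranes, stayed below 1 FPKM in every library. Their part in the members' levels was not tested.

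Members followed each other across libraries. The median correlation between members was 0.815 over 12 libraries and 0.547 over the 11 without Tert-/- saline replicate 2, from 3570 pairs. With the mean of all members, Rps4x had the highest correlation (0.99 over 12 libraries, 0.964 over 11). The lowest over 12 libraries were Rpl7l1 (-0.51, and 0.235 over 11) and Rps27a (-0.04, and 0.543 over 11). Over 11 libraries the lowest were Rpl24 (-0.03), Rps3a2 (0.044) and Rpl22l1 (0.063). Among genes that are not members, those most like the members' mean over 12 libraries were Chmp2a, Eef1b2, Rpl3-ps1, Ndufc1, Bola2, Gm15427, Fau, Eif3k, Rps10-ps2 and Tceb2, with r between 0.956 and 0.978. Over 11 libraries these 10 had r between 0.74 (Tceb2) and 0.932 (Eef1b2, a subunit of the exchange factor that recharges elongation factor 1A). The points share their libraries, so no test is given.

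**Figure D3:**
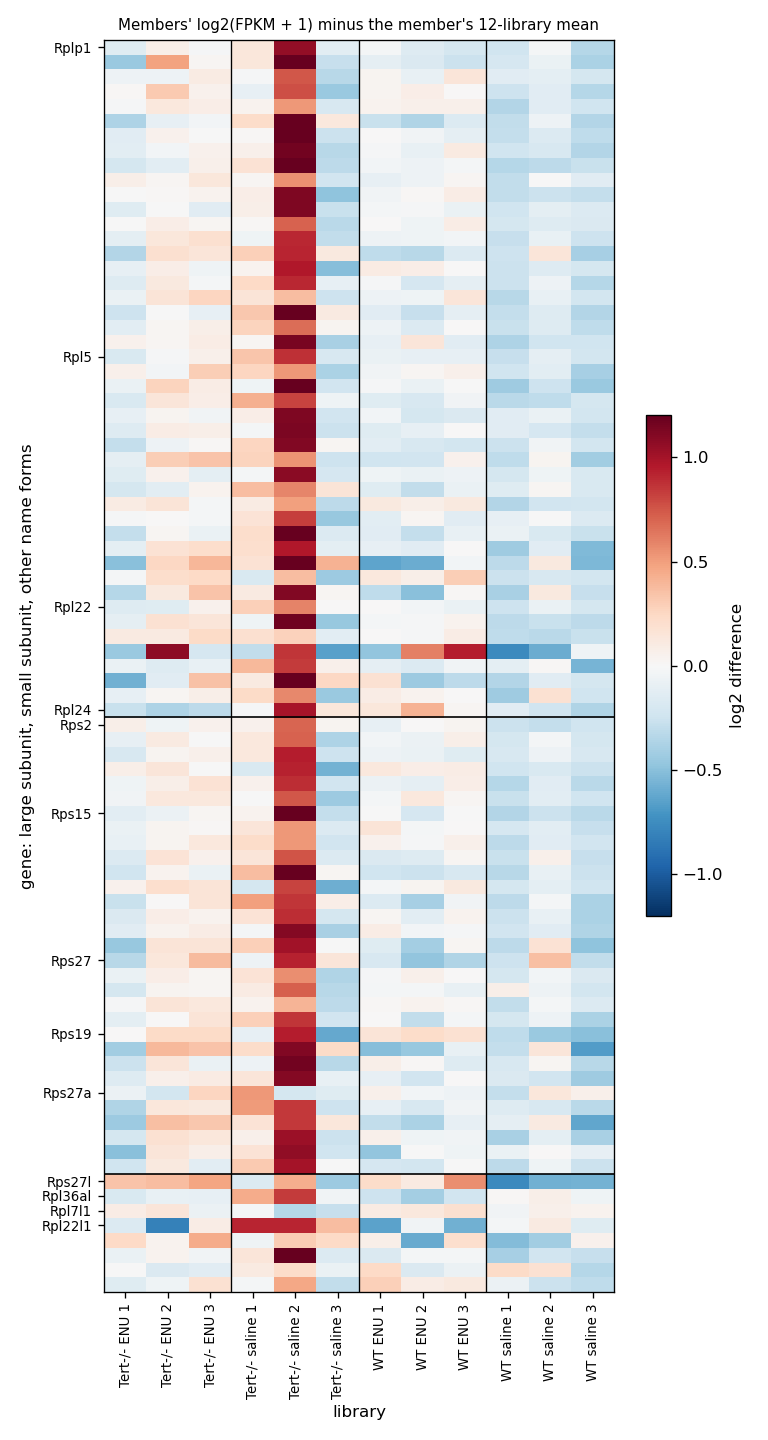
Rows are the 85 tested genes, ordered by mean FPKM within the large subunit, the small subunit and the other name forms, with some rows named; columns are the 12 libraries, and colour is log2(FPKM + 1) minus the gene's mean over the 12 libraries (colours saturate beyond the ends of the scale). Tert-/- saline replicate 2 is red for 78 members that peak there, and Rps27l is red in all 6 ENU libraries.

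After ENU in Tert-/- livers Rpl22l1 fell, and it was the only 1 of the 85 members past the threshold when all libraries were used, where 9.58% of all tested genes were. Rpl22l1 (chromosome 3, 28805436 to 28807424, mm10) had 15.8, 9.79 and 19.1 FPKM after ENU, against 34.6, 34.5 and 23.5 FPKM after saline. All 3 ENU libraries were below all 3 saline libraries, with a log2 change of -1.03 (SE 0.25, adjusted p = 0.0280, limma). Of the 85 members 0 rose and 1 fell, where 8.13% of the tested genes rose and 1.45% fell. At an unadjusted p under 0.05 there were 13 members, where 29.4% of all tested genes were. The median log2 change was -0.28 over the members and 0.24 over all tested genes, and 12 of 85 estimates were above 0, where 70.7% of all tested genes were. Median-ratio rescaling moved the median of all tested genes to 0.0048 and that of the members to -0.58. In 8 members (Rpl22l1, Rpl35a, Rpl24, Rpl36al, Rpl27a, Rpl23a, Rpl36 and Rpl34) all ENU libraries were below all saline libraries, where 6.35% of all tested genes were, and the opposite held for 0 members, where 24.5% of all tested genes were.

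Without Tert-/- saline replicate 2, 5 members rose after ENU and Rpl22l1 alone fell, where 13% of tested genes rose and 4.21% fell (17.2% in all). The median log2 change of the members was then 0.044, against 0.076 over all tested genes, and 50 of 85 estimates were above 0, where 58.4% of all tested genes were. In 6 members all ENU libraries were above saline replicates 1 and 3, where 29.7% of all tested genes were, and in 8 members below, where 16.7% were. Among the risers were Rps27l (log2 0.70, SE 0.14, adjusted p = 0.0102), Rps19 (0.51), Rpl9 (0.45) and Rpsa (0.45), all by limma. Rps27l had 489, 499 and 534 FPKM after ENU, against 343, 520 and 285 FPKM after saline. Saline replicate 2 was thus above ENU replicates 1 and 2 for Rps27l. With all libraries the log2 change of Rps27l was 0.45, and it was not called. Rps19 is the small subunit protein most often mutated in human Diamond-Blackfan anaemia, and Rpsa is the small subunit protein also known as the laminin receptor. Rps19 had 215, 251 and 252 FPKM after ENU, against 200 and 139 FPKM in Tert-/- saline replicates 1 and 3, and 411 FPKM in replicate 2. The ENU libraries were thus above saline replicates 1 and 3 and below replicate 2. With median-ratio rescaling as well, 2 members rose, Rps27l among them, and 3 fell, Rpl22l1 among them, where 8.82% of tested genes rose and 6.87% fell. Without Tert-/- saline replicate 3 instead, 0 members rose and 18 fell, where 19% of tested genes rose and 3.73% fell.

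ENU in wild-type livers left 0 of 85 members past the threshold when all libraries were fitted (limma; 2 at an unadjusted p under 0.05, against 12.7% of tested genes, and 0 called by voom on recovered reads), where 0.748% of the tested genes rose and 0.249% fell (0.997% in all). The median log2 change was 0.15 over the members and 0.10 over all tested genes, and 72 of 85 estimates were above 0, against 65.2% of all tested genes. After median-ratio rescaling, 53 of 85 estimates were above 0, and the medians were 0.042 over the members and 0.0099 over all tested genes. In 40 members all ENU libraries were above all saline libraries, where 27% of all tested genes were. Rpl36al was the only member with every ENU library below every saline library, where 8.33% of all tested genes were. Rps27l (chromosome 9, 66946086 to 66949516) had the highest change, 449, 415 and 567 FPKM after ENU, against 227, 258 and 259 FPKM after saline. All ENU libraries were above all saline libraries, with a log2 change of 0.93 (SE 0.21, adjusted p = 0.0617, limma). Rps19 had 239, 249 and 243 FPKM after ENU, against 172, 156 and 151 FPKM after saline, again without overlap (log2 0.61, SE 0.29, adjusted p = 0.426, limma).

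Leaving Tert-/- saline replicate 2 out of the fit left these wild-type fold changes as they were, with 72 of 85 above 0, where 65.3% of all tested genes were, and it lowered the shared spread (SE of Rps27l 0.13, against 0.21). Rpl36al was still the only member below in every ENU library, where 8.3% of all tested genes were. Rps27l then rose with adjusted p = 0.00257, Rps19 with 0.0184, Rpl9 with 0.0419 and Rpl7a, a large subunit protein, with 0.0493 (limma). That was 4 members higher and 0 lower, where 8.58% of tested genes rose and 2.1% fell. Fitted on the 2 wild-type groups alone, 7 members rose and 0 fell, where 7.2% of tested genes rose and 1.74% fell. With median-ratio rescaling and without that library, Rps27l was the only member called, where 3.13% of tested genes rose and 2.9% fell. The clock ratio log2 Dbp to Arntl, which tracks time of day in liver, was 4.08, 3.05 and 5.19 in Tert-/- livers after ENU, 5.26, 6.05 and 5.75 in Tert-/- livers after saline, -0.52, 4.15 and 4.17 in wild-type livers after ENU, and -2.12, 0.14 and -1.81 in wild-type livers after saline. Every Tert-/- saline library was above every wild-type saline library in this ratio, while the wild-type ENU and saline libraries overlapped, and every Tert-/- ENU library was below every Tert-/- saline library. The erythroid sums were lower in every ENU library than in every saline library of the same genotype. So were the summed endothelial markers, with 39.54 to 43.04 FPKM after ENU, against 47.7 to 74.1 after saline in Tert-/- livers, and 39.0 to 61.8 after ENU, against 68.8 to 83.9 after saline in wild-type livers. T cell markers (0.124 to 0.384 FPKM, against 0.881 to 2.81 in Tert-/- livers; 0.0873 to 0.706, against 1.74 to 2.95 in wild-type livers) and B cell markers (0.07 to 0.424 FPKM, against 0.493 to 1.82; 0.165 to 0.529, against 1.83 to 2.99) were lower after ENU in the same way. Summed hepatocyte markers (42860 to 61150 FPKM after ENU, against 62600 to 101700 after saline) and Kupffer cell markers (72.8 to 95.8 FPKM, against 99.1 to 205) were lower without overlap in Tert-/- livers, and overlapped in wild-type livers. The single hepatocyte markers differed in Tert-/- livers. Alb, the most abundant, overlapped (26580 to 44510 FPKM, against 41130 to 65860), and Hnf4a was higher without overlap (352 to 513 FPKM, against 218 to 343). Ttr, Ass1 and Serpina1a were lower without overlap, and the others overlapped. The single endothelial markers differed too. Clec4g, the most abundant, and Stab2 were lower after ENU without overlap in both genotypes, and Pecam1 and Kdr only in wild-type livers. Lyve1 overlapped in both genotypes. It had 3.591 to 4.995 FPKM after ENU, against 0.8699 to 3.931 after saline, in Tert-/- livers. In wild-type livers it had 4.274 to 6.941 FPKM, against 2.465 to 4.542. The part of the clock ratio and of these markers in these results was not tested.

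Across the 85 members, the ENU effects in the 2 genotypes, which share no library, had a Spearman rho of 0.58 with all libraries and 0.67 without Tert-/- saline replicate 2, against 0.51 and 0.49 across all tested genes. Rps27l had the highest and Rpl22l1 the lowest log2 change of the 85 in each genotype, with or without that library. Rpl22l1 had 11.1, 17.3 and 11.7 FPKM in wild-type livers after ENU, against 17.5, 19.4 and 16.1 FPKM after saline. These overlapped, with a log2 change of -0.40 (SE 0.25, adjusted p = 0.573, limma). In saline Rpl22l1 was higher in every Tert-/- library (23.5 FPKM or more) than in every wild-type library (19.4 or less). That held for 6.42% of all tested genes, and for 22.1% without Tert-/- saline replicate 2. After ENU the genotypes overlapped for Rpl22l1. The difference between the ENU effects was called for 0 of 85 members, where 0% of the tested genes were called (limma; 4 members and 844 genes at an unadjusted p under 0.05, and 0 members by voom). Of the 85 estimates 2 were above 0, where 66.1% of all tested genes were. Its median was -0.43 over the members and -0.10 without Tert-/- saline replicate 2, against 0.15 and -0.01 over all tested genes.

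**Figure D4:**
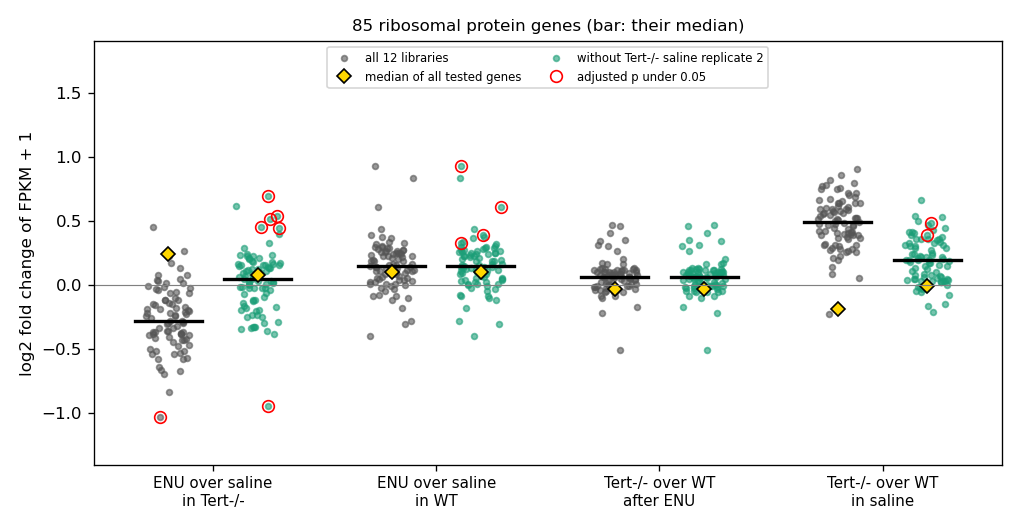
Each point is the log2 fold change of FPKM + 1 of a tested ribosomal protein gene in the contrast named on the x axis, grey with all 12 libraries and green without Tert-/- saline replicate 2; bars are the members' medians, diamonds the medians of all tested genes, and red circles adjusted p under 0.05. The members' median in Tert-/- livers is -0.28 with all libraries and 0.044 without that library, and in saline the Tert-/- against wild-type median is 0.49 and 0.19.

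Paralogues were set against their partners within each library, as the difference of their log2(FPKM + 1) values. There were 5 pairs with both genes tested, and an exact two-sided permutation of treatment within genotype (400 arrangements, smallest p 0.005) was adjusted over them. The log2 ratio of Rps27l to Rps27 was 1.34, 0.90 and 0.76 in Tert-/- livers after ENU, against 0.55, 0.17 and 0.08 after saline. In wild-type livers it was 1.08, 1.24 and 1.58 after ENU, against 0.15, -0.28 and 0.39 after saline. Every ENU library was above every saline library of its genotype, with a mean difference of 0.97 (exact p = 0.005, the smallest possible, adjusted p = 0.0125). Rps27l shared none of its 100-base stretches with other genes, but Rps27 shared 98.4% with 2 annotated genes that include Rps27rt, so its level is uncertain.

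The log2 ratio of Rpl22l1 to Rpl22 fell after ENU, by 0.65 in Tert-/- and by 0.54 in wild-type livers. It was -2.61, -3.26 and -2.56 in Tert-/- livers after ENU, against -1.97, -2.28 and -2.23 after saline. In wild-type livers it was -3.24, -2.61 and -3.09 after ENU, against -2.37, -2.41 and -2.53 after saline. The groups did not overlap in either genotype (mean difference -0.60, exact p = 0.005, adjusted p = 0.0125). Rpl22 itself, a large subunit protein, had 102, 102 and 118 FPKM in Tert-/- livers after ENU, against 138, 171 and 114 FPKM after saline. In wild-type livers Rpl22 had 114, 111 and 107 FPKM after ENU, against 95, 107 and 97.7 FPKM after saline. Rpl22l1 shared 50.8% of its 100-base stretches with 2 other genes, while Rpl22 shared none.

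The log2 ratio of Rpl36al to Rpl36a, near-identical large subunit proteins from chromosomes 12 and X, also fell after ENU, with a mean difference of -0.44 (exact p = 0.01, adjusted p = 0.0167). It averaged 0.39 ± 0.13 in Tert-/- livers after ENU and 0.68 ± 0.18 after saline, and 0.39 ± 0.06 in wild-type livers after ENU and 0.98 ± 0.15 after saline (SD, n = 3 each). The Tert-/- libraries overlapped and the wild-type libraries did not. Rpl36a shared 83.6% of its 100-base stretches with 2 -ps genes, so its level is uncertain. The ratios of Rpl7l1 to Rpl7 (mean difference 0.28, exact p = 0.115, adjusted p = 0.144) and of Rps4l to Rps4x (0.17, exact p = 0.435, adjusted p = 0.435) did not pass the test for ENU. Between genotypes, permuted within treatment, no ratio passed; the nearest was Rpl7l1 to Rpl7, with a mean difference of -0.47 (exact p = 0.015, adjusted p = 0.075).

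**Figure D5:**
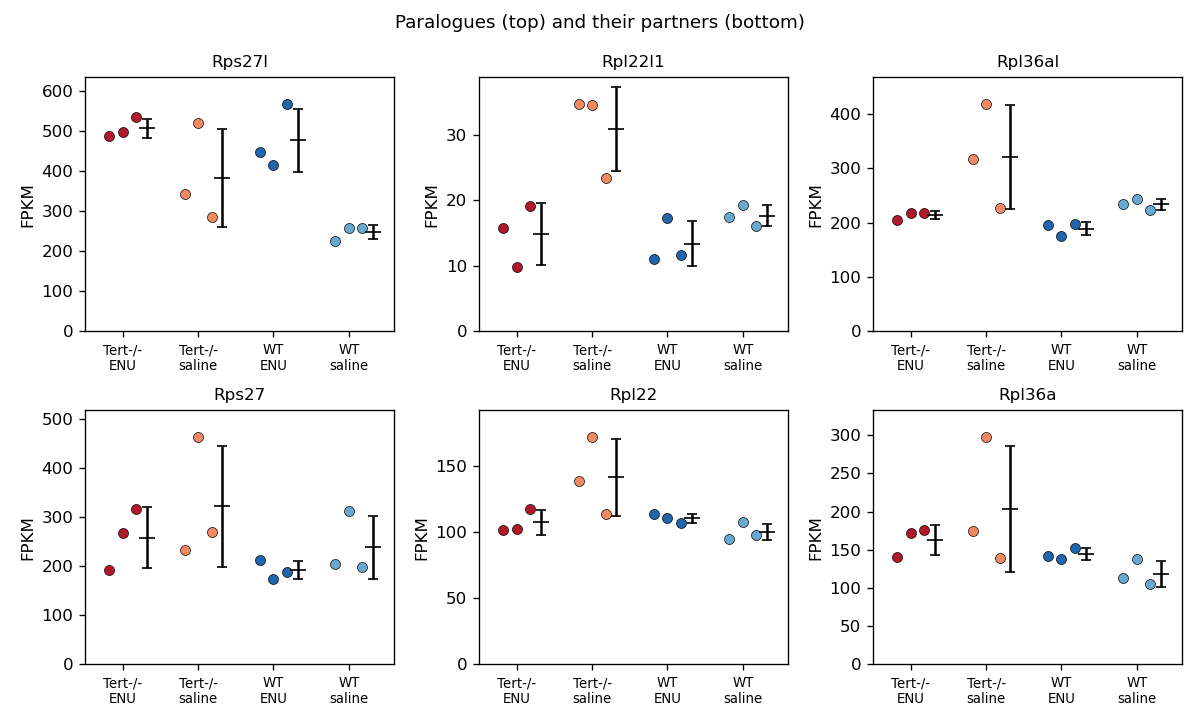
FPKM of the paralogues Rps27l, Rpl22l1 and Rpl36al (top) and of their partners Rps27, Rpl22 and Rpl36a (bottom); points are libraries and the marks beside them the group mean and SD (n = 3). Rps27l is higher after ENU than after saline in each wild-type library (415 FPKM or more, against 259 or less), while Rps27 is not.

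Between genotypes in saline, the members had higher estimates in Tert-/- livers, and the size rested on replicate 2. With all libraries 84 of 85 estimates were above 0, against 31.5% of all tested genes, and the median was 0.49, against -0.19. Of the 85, 0 passed the threshold (limma; 35 at an unadjusted p under 0.05, against 23.5% of tested genes, and 0 by voom), where 0.748% of the tested genes rose and 4.26% fell (5.01% in all). After median-ratio rescaling the median of all tested genes was -0.0032, 85 of 85 estimates were above 0 and 0 members were called. In 24 members all Tert-/- saline libraries were above all wild-type saline libraries, where 6.42% of all tested genes were, and in 0 members below, where 19.5% were. Without replicate 2 the counts were again 24 and 0, where 22.1% and 24.9% of all tested genes were. Without it the median was 0.19, against -0.01 over all tested genes, with 72 of 85 estimates above 0, where 49.1% of all tested genes were. The large subunit genes Rpl27a (0.48, SE 0.12, adjusted p = 0.0264) and Rpl7 (0.39, SE 0.11, adjusted p = 0.0415) then rose by limma, where 4.71% of tested genes rose and 8.23% fell. Rpl27a had 317, 597 and 272 FPKM in Tert-/- livers, against 207, 227 and 198 FPKM in wild-type livers. Rpl7 had 306, 404 and 260 FPKM, against 211, 228 and 206 FPKM. For both genes all Tert-/- saline libraries were above all wild-type saline libraries, replicate 2 or not. Without Tert-/- saline replicate 3 instead of replicate 2, 35 members rose and 0 fell, where 2.57% of tested genes rose and 9.33% fell. Across these livers the summed stellate and fibroblast markers (41.1 to 66.8 FPKM in Tert-/-, against 72.2 to 95.7 in wild type), cholangiocyte markers (3.59 to 4.99 FPKM, against 6.31 to 8.16) and B cell markers (0.493 to 1.82 FPKM, against 1.83 to 2.99) were also lower in Tert-/- without overlap. Their part in the members' differences was not tested.

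Between genotypes after ENU, 0 of 85 members passed the threshold (limma; 0 at an unadjusted p under 0.05, and 0 by voom), where 0% of the tested genes were called and 541 had an unadjusted p under 0.05. The median log2 difference was 0.066 over the members and -0.031 over all tested genes. Rpl36al and Rpl7a were higher in all Tert-/- ENU libraries than in all wild-type ENU libraries, where 5.56% of tested genes were, and Rpl24 was lower, where 10.4% were. Rps27l did not separate the genotypes after ENU, with 489, 499 and 534 FPKM in Tert-/- livers and 449, 415 and 567 FPKM in wild-type livers (log2 0.10, 95% interval -0.35 to 0.55).

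Rpl5, Rpl11, Rpl23 and Rpl26, whose proteins can bind Mdm2 or p53 mRNA, passed the threshold in no contrast, with all libraries or without Tert-/- saline replicate 2. Rpl5 had 213, 239 and 254 FPKM in Tert-/- livers after ENU, against 305, 446 and 212 FPKM after saline, and Rpl11 had 379, 435 and 417 FPKM, against 421, 990 and 350 FPKM. In wild-type livers Rpl5 had 229, 226 and 226 FPKM after ENU, against 200, 224 and 208 FPKM after saline, and Rpl11 had 419, 405 and 388 FPKM, against 343, 373 and 338 FPKM. Both genes were higher in every wild-type ENU library than in every wild-type saline library, where 27% of all tested genes and 40 of the 85 members were. The nearest Rpl5 libraries had 225.73 FPKM after ENU and 224.19 after saline. The log2 change was 0.11 (SE 0.22, adjusted p = 0.895, limma) for Rpl5 and 0.20 (SE 0.29, adjusted p = 0.855, limma) for Rpl11. Rpl23, which also binds Mdm2, had a log2 change of 0.017 after ENU in Tert-/- and 0.23 in wild-type livers, and Rpl26, which binds p53 mRNA, one of -0.37 and 0.11. In the same libraries Cdkn1a, the p53 target that arrests the cell cycle, had 112, 225 and 111 FPKM in Tert-/- livers after ENU, against 1.18, 1.43 and 0.917 FPKM after saline. It had 285, 135 and 224 FPKM in wild-type livers after ENU, against 32.5, 4.70 and 17.0 FPKM after saline. Rpl5 shared 91.1% of its 100-base stretches with 6 other genes.

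The stalk genes peaked in Tert-/- saline replicate 2 like most members. In wild-type livers only Rplp0 of them was higher in every ENU library than in every saline library, where 27% of all tested genes were. Rplp0 had 575, 710 and 592 FPKM in Tert-/- livers after ENU, against 531, 974 and 420 FPKM after saline. Rplp0 had 585, 602 and 572 FPKM in wild-type livers after ENU, against 481, 518 and 449 FPKM after saline, without overlap. Rplp1 had 718, 833 and 788 FPKM in Tert-/- livers after ENU, against 874, 1646 and 727 FPKM after saline, and the wild-type groups overlapped. Rplp2 had 175, 192 and 182 FPKM in Tert-/- livers after ENU, against 198, 408 and 160 FPKM after saline. In wild-type livers Rplp2 overlapped, with 184, 161 and 166 FPKM after ENU, against 170, 177 and 160 FPKM after saline. Rpsa, which is not a stalk gene, had 499, 482 and 487 FPKM in wild-type livers after ENU, against 387, 404 and 382 FPKM after saline, without overlap.

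Other genes of the translation machinery were read from lists. After ENU 8.13% of all tested genes rose and 1.45% fell in Tert-/- livers (13% and 4.21% without Tert-/- saline replicate 2). In wild-type livers 0.748% rose and 0.249% fell (8.58% and 2.1% without that library). The counts below are to be read beside these shares. The 3 ribosomal protein genes under other names, which include Fau, a ubiquitin-type fusion gene, and Rack1, a 40S scaffold, had 0 calls in every contrast by limma. Fau had 427, 446 and 481 FPKM in Tert-/- livers after ENU, against 472, 1070 and 380 FPKM after saline, so it peaked in replicate 2 like the members. Of 57 ribosome biogenesis factors 6 rose and 0 fell after ENU in Tert-/- livers (9 and 2 without replicate 2), among them Rrs1 (log2 1.02), Polr1a (0.92), Nop2 (0.76) and Nip7 (0.51). In wild-type livers 0 were called (5 rose without replicate 2, among them Rrp9 at log2 0.67 and Rrn3 at 0.54). Of 8 genes of the 5S RNP and Mdm2-p53 list 3 rose in Tert-/- livers after ENU, Cdkn1a (log2 6.04), Mdm2 (1.77) and Rrs1 (1.02), and 1 rose in wild-type livers, Cdkn1a (3.77). Without replicate 2 these counts were 4, with Trp53 (0.41) added, and 3, with Mdm2 (1.65) and Mdm4 (0.56) added. In saline Cdkn1a (-2.80) and Hexim1 (-0.68) of that list were lower in Tert-/- livers. Of 22 kinase and mTOR genes 4 rose in Tert-/- livers after ENU, Sesn2 (log2 1.62), an mTOR inhibitor, Mtor (0.95), Tsc2 (0.60) and Rptor (0.59), and 1 in wild-type livers, Sesn2 (1.55). Without replicate 2, 6 of that list rose and 2 fell in Tert-/- livers, and 3 rose in wild-type livers, Sesn2, Mtor (0.37) and Tsc2 (0.34). The 35 initiation factors and the 12 elongation and termination factors had 0 calls for ENU in either genotype. Without replicate 2, 3 initiation genes rose in Tert-/- livers, Eif4ebp2 (log2 0.57), Eif4g1 (0.39) and Eif2b5 (0.29), Eif2s2 (-0.36) fell, and Eif4b rose in wild-type livers (0.39). Without it Eef2, the translocation factor, rose in Tert-/- livers after ENU (log2 0.67, SE 0.13, adjusted p = 0.00844, limma). Of the nuclear respiratory chain genes 1 rose (Cox6b2, log2 1.82) and 10 fell after ENU in Tert-/- livers, among them Cox5a (-0.78) and Ndufb8 (-0.56), and 2 rose in wild-type livers, Ndufb6 (0.85) and Cox6b2 (1.76). Without replicate 2 the respiratory chain counts were 1 and 10 in Tert-/- livers, and 8 rose and 2 fell in wild-type livers. Of the proteasome genes Psma5 fell in Tert-/- livers (-0.52), and of the mitochondrial ribosomal protein genes 0 were called for ENU in either genotype. Without replicate 2, Psmc4 (0.52) and Psmd9 (0.38) rose and Psma5 (-0.41) fell in Tert-/- livers, where 4 mitochondrial ribosomal protein genes rose, Mrpl38 (0.52), Mrpl37 (0.47), Mrpl4 (0.41) and Mrps7 (0.37). Neither list had a call in wild-type livers without replicate 2.

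Between genotypes in saline, 16 of 76 nuclear respiratory chain genes were higher in Tert-/- livers and 0 lower (27 and 0 without replicate 2), with medians of 0.57 and 0.37. Ndufa12 (log2 1.35), Ndufb8 (0.70), Cox5a (0.79) and Atp5g3 (0.64) led that list. Of 77 mitochondrial ribosomal protein genes 3 were higher, Mrpl13 (0.68), Mrpl27 (0.56) and Mrps15 (0.74), and 5 were higher and 1 lower without replicate 2. Among 37 proteasome genes 0 were called (1 higher and 1 lower without replicate 2), and among the initiation factors Eif3m was higher (log2 0.54; 2 higher and 1 lower without replicate 2). The kinase and mTOR list had 3 lower members, Rptor (-0.74), Akt1 (-0.62) and Larp1 (-0.96), the last of which binds pyrimidine-start mRNAs. Without replicate 2 the list had 1 higher member, Rps6kb1 (0.42), and 4 lower. These 3 were still lower, with log2 differences of -0.59 for Rptor, -0.54 for Akt1 and -0.59 for Larp1. Of all tested genes, 0.748% were higher and 4.26% lower in Tert-/- than in wild-type livers after saline (4.71% and 8.23% without replicate 2).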

How the data were processed

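RNA of mouse liver was sequenced as 12 libraries, 3 in each of 4 groups taken from the sample labels. Per the labels' protocols, 3 µg total RNA entered an NEBNext Ultra preparation. The submitters' processing notes name HISAT2, HTSeq and the build mm10. Their versions, the annotation release, the read length and the strand setting were not stated there or in the labels. The authors deposited FPKM values for 49584 genes; 1 further line of the table was emptied, and it and some single genes are not reported here. Each value column matched a labelled sample. Dividing by the value of 1 read returned whole reads (within 0.01) for 26523 of 26524 genes above 0 (99.996%), at the mean GENCODE M21 transcript length for 22372 and the smallest whole length for 4151.

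Tests used log2(FPKM + 1) of the 12434 genes that reached 1 FPKM in 3 or more libraries, in a group-means model over 12 libraries fitted with limma 3.58.1 (R 4.3.3) with a mean-variance trend, two-sided, Benjamini-Hochberg adjusted over all tested genes, threshold 0.05. Such fold changes understate low genes. The steps were tested on simulated data. Paralogue ratios used exact permutations. The share of 100-base stretches and GC used the GENCODE M21 principal transcript, and promoters came from RefSeq (GRCm38.p6). Named in full were members past the threshold, the 5 highest and lowest, paralogues, Rpl5, Rpl11, Rpl23, Rpl26, the stalk genes and Rpsa; from the other lists, up to 4 called genes or the 2 most abundant. Other members named were chosen after their values were seen. The members and lists were chosen with earlier results of these data known. The lowest tested member by mean, Rpl24, had 9 to 44 reads per library, so its values are the least precise in counting. Alternatives were median-ratio rescaling, quantile normalization, a pseudocount of 0.1, no filter, a replicate block, voom on the recovered reads, 2 groups alone and leaving out each library.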

Additional observations from a re-analysis of the deposited data

How the results depend on the processing

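Counts of called members are given as members past the threshold in either direction. For ENU in Tert-/- livers the count was 1 with all libraries, 2 under quantile normalization, 0 without the filter and 0 with the 2 groups fitted alone. Leaving out each library in turn gave 0 to 18. Median-ratio rescaling without Tert-/- saline replicate 2, chosen after seeing the data, gave 5. Of all tested genes, 638 rose and 482 fell under quantile normalization, and 627 and 102 of 26524 without the filter. With the 2 groups alone only 47 of 12434 genes rose and 9 fell. Without Tert-/- ENU replicate 1, which also gave 0 members, 224 genes rose and 42 fell. For ENU in wild type the count was 0, and 1 under quantile normalization, 7 with the 2 groups alone, 0 to 4 leaving out each library and 1 under the added setting. There 103 of all tested genes rose and 71 fell under quantile normalization, and 895 and 216 with the 2 groups alone. For genotype in saline the count was 0, and 0 to 35 leaving out each library. Under the added setting it was 3, where 789 of 12395 tested genes were higher and 985 lower. The median log2 change for ENU in Tert-/- livers was -0.28, -0.58 after median-ratio rescaling and -0.53 to 0.044 leaving out each library; for genotype in saline it was 0.49 and 0.19 to 0.74; for the difference between ENU effects it was -0.43, -0.65 to -0.10 leaving out each library and -0.084 under the added setting. Without mitochondrially encoded genes in the denominator the wild-type ENU share was 2.93%. The Tert-/- against wild-type difference of the Rps27l to Rps27 ratio, -0.06, ranged from -0.15 to 0.015 leaving out each library, and that of Rpl7l1 to Rpl7 from -0.54 to -0.35, with adjusted p = 0.025 (exact permutation) without Tert-/- ENU replicate 1. The 3 paralogue ratios called for ENU kept their direction and adjusted p under 0.05 when each library was left out and with a pseudocount of 0.1. The call of Rpl22l1 was lost without the filter (adjusted p = 0.0629, limma), with the 2 groups alone (0.18), and without Tert-/- ENU replicate 1 (0.0811), Tert-/- ENU replicate 2 (0.0939) or Tert-/- saline replicate 1 (0.0568). The causes were not tested. Same-numbered libraries had correlations of -0.16 to 0.21 after removing group means, and differently numbered ones -0.255 to 0.237. Between wild-type ENU and saline libraries they were 0.0989 to 0.165 for same numbers and -0.128 to 0.0121 for different ones. Removing means of 3 libraries constrains these correlations, so the check cannot decide whether the numbers pair the libraries. With a replicate block the members called were 1 for ENU in Tert-/- livers and 0 in the other contrasts. Of all tested genes, 796 rose and 158 fell for ENU in Tert-/- livers with that block, and 81 and 27 in wild-type livers. For genotype in saline 39 were higher and 305 lower. The shallowest library held 30053822 reads, and Rpl24 had as few as 9 reads in a library.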
